A study of Homo sapiens with 49 samples.

Results

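The 2 peak lists described here came from ChIP-seq libraries labelled H3K27me3 in Ishikawa cells, an estrogen-responsive line from an endometrial adenocarcinoma. One library was made after vehicle (DMSO) and the other after 10 nM 17β-estradiol (E2), both for 8 h, and per the study's methods the cells had been kept in hormone-depleted medium beforehand. Members were all regions of both lists, 2199 under DMSO and 6992 under E2, or 9191 of the 528044 regions in the 45 lists of the series. A region was called shared where it overlapped a region of the other list by at least 1 bp, and DMSO-only or E2-only where it did not. Each treatment had 1 library, so no difference between the lists had a replicate check and no test was made. Each share comes with its 95% interval by the exact Clopper-Pearson method, and these intervals hold counting error alone. The Ishikawa lists of H3K4me3 and H3K4me1 (8 h, DMSO or 10 nM E2), the bound proteins and H3K36me3 served as references. Proteins were mapped after 1 h of the same treatments, with SIN3A in hormone-stripped or full medium instead. The H3K36me3 label names no treatment. H3K27me3 and H3K4me3 lists of T-47D breast carcinoma cells, after 8 h of DMSO or 10 nM E2, were compared as well.

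Trimethylation of lysine 27 on histone H3 is laid down by Polycomb repressive complex 2, whose catalytic subunit is EZH2 or EZH1, and is removed by the demethylases KDM6A and KDM6B. The mark is known for wide domains over silent developmental genes, above all homeobox and other lineage transcription factors with CpG islands at their promoters. Where it sits beside the active promoter mark H3K4me3, as in stem cells, a promoter is called bivalent.

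The regions went against the label of the antibody. Under E2, genes known as Polycomb targets were covered less often than protein-coding genes as a whole, and housekeeping genes more often. Under DMSO the Polycomb targets were not above the background. Of 155 developmental transcription factor genes on the Polycomb target list, 2 had a region within 250 bp of a start site under DMSO (1.29%, interval 0.157 to 4.58), against 2.22% of the 19748 protein-coding genes, which the interval holds. Under E2 the count was 23 (14.8%, interval 9.64 to 21.4), against 24.6% of all protein-coding genes. Of the targets with start-site H3K4me3 under E2, 20 of 93 had a region, against 36.3% of all such genes. Among genes without H3K4me3 the order was reversed, with targets above the 0.25% of all such genes. Of the list 2 genes had a region under both treatments and 21 under E2 alone, where the background was 1.72% and 22.9%. None had one under DMSO alone, with a background of 0.501%. Of 50 housekeeping genes, 5 had a start-site region under DMSO (10.0%) and 28 under E2 (56%, interval 41.3 to 70.0). The regions were also narrow. The lists hold narrow peaks with −log10 p-values of at least 10.0, a form that would not show diffuse domains. Width therefore does not bear on the label. Median width was 238 bp under DMSO and 328 bp under E2, the widest regions spanned 937 and 2170 bp, and 0 and 46 regions exceeded 1 kb. Because of the gene coverage above, the regions are called H3K27me3-labelled below, and their values are not read as levels of that mark. As a check of the cell type, start-site H3K4me3 lay at 19 of 24 endometrial and Mullerian transcription factor genes under DMSO and 21 under E2. The background is high, with 66.6% and 67.5% of all protein-coding genes, so these counts alone are a weak check. Among genes picked after their values were seen, KRT8 and KRT18, keratins of simple epithelia, carried it under both treatments and the leukocyte gene PTPRC under neither.

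Sequences at the summits show how the classes differed. A pair of the strongest regions of each class is given as 150 bp centred on the summit, plus strand of GRCh37 (hg19), with every CpG dinucleotide in capitals. The shared ones are centred on the E2 summit.
RPS21-upstream, shared, chr20:60952749-60952898: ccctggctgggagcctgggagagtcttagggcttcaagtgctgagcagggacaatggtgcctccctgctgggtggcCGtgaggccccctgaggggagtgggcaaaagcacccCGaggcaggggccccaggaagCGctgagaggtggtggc
TXN2-downstream, shared, chr22:36861425-36861574: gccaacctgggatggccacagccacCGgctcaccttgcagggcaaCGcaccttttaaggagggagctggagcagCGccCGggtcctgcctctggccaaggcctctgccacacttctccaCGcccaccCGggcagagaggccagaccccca
TCL1B-upstream, DMSO-only, chr14:96132931-96133080: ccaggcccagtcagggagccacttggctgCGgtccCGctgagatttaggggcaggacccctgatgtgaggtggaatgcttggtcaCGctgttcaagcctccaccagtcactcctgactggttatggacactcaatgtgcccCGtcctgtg
IZUMO2-upstream, DMSO-only, chr19:50670716-50670865: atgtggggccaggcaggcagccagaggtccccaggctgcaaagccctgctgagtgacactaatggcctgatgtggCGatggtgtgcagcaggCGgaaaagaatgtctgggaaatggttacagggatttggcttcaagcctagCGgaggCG
NT5DC2 start, E2-only, chr3:52567966-52568115: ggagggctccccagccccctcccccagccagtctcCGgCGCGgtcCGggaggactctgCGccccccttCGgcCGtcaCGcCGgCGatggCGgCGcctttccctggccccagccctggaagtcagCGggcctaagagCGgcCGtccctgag
DOK7 intron, E2-only, chr4:3468769-3468918: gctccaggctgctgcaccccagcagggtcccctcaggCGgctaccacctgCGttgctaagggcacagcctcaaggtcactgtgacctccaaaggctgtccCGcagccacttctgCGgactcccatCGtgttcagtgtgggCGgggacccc
The NT5DC2 window, centred 168 bp upstream of the nearest protein-coding start, held 15 CpG dinucleotides and the TCL1B and IZUMO2 windows 4 each. The shared regions held 3 and 6, and the DOK7 intron, which was E2-only but not CpG-rich, held 6.

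Most H3K27me3-labelled regions were present under E2 and missing from the DMSO list. Counted once over both lists, with shared regions as in the E2 list, 6054 of 8228 regions were E2-only (73.6%), 1236 were DMSO-only (15.0%) and 938 were shared. The size of that majority follows the lengths of the lists. With the E2 list shortened to the length of the DMSO list by −log10 p-value, 1587 regions were E2-only and 1564 DMSO-only. Lists of equal length give nearly equal counts by construction, so this setting is no separate check. Within its own list the E2-only class made up 86.6% of regions (interval 85.8 to 87.4), and the DMSO-only class 56.2% (interval 54.1 to 58.3). Few of the unshared regions lay close to a region of the other list, 2.41% of E2-only and 8.09% of DMSO-only regions being within 1 kb. Median fold enrichment, the summit pileup over the local background with 1 tag added to each, was 9.10 for DMSO-only regions and 10.6 for E2-only regions. It was 8.97 for shared regions in the DMSO list and 14.5 for the same places in the E2 list. Just inside the limit of the lists, the tenth of regions with the lowest −log10 p-value (10.0 to 13.6 under DMSO, 10.3 to 14.9 under E2) was shared in 40.0% and 3.14% of cases. In the tenth with the highest values it was 62.3% and 50.4%.

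The depth behind the lists differed. Solving fold enrichment and p-value together gave the whole number of tags at each summit and its local background for all 9191 regions. Median tags at a summit were 25 under DMSO and 20 under E2, while the lowest background held by at least 10 regions was 0.801 tags under DMSO and 0.225 under E2. If the narrowest regions, 164 and 222 bp, had the fragment length of their library, the E2 library held 0.207 times the tags of the DMSO library. The longer list therefore came from the library with fewer estimated tags. Treatment, depth and the efficiency of the 2 precipitations cannot be told apart in region numbers or folds.

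**Figure D1:**
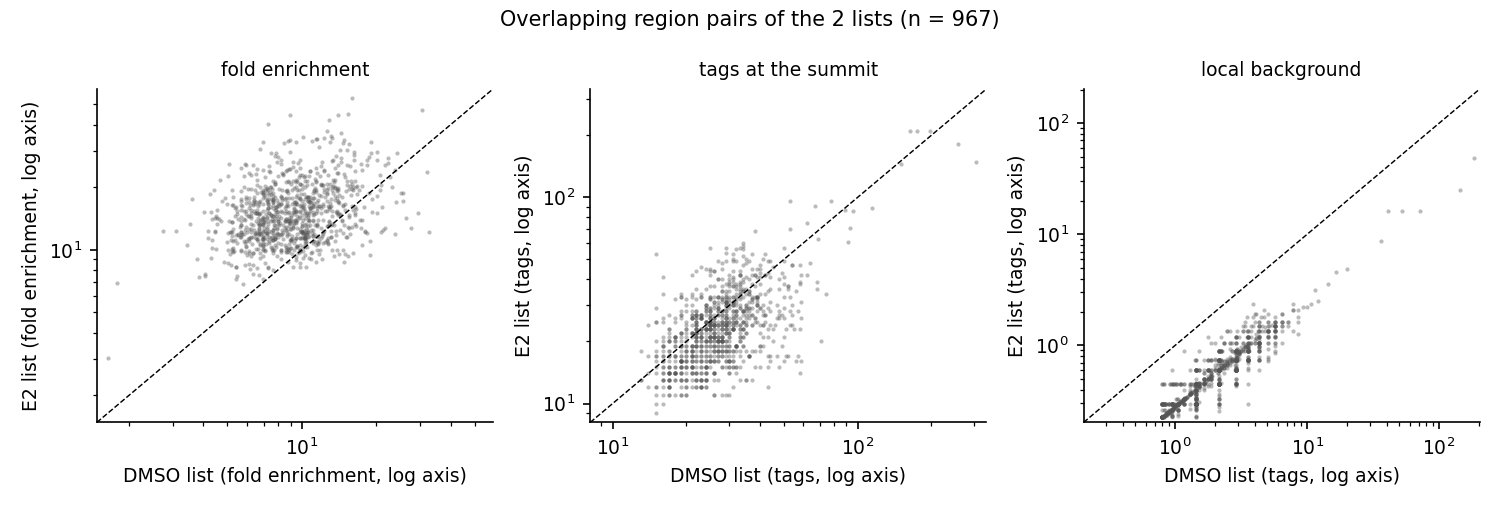
Fold enrichment, tags at the summit and local background (log axes) for the 967 overlapping pairs, DMSO list on the x axis and E2 list on the y axis, with a dashed line of equal values. Folds lay above the line in 857 pairs, tags lay below it in 641, and background lay below it with medians of 2.12 tags under DMSO and 0.528 under E2. Points with backgrounds far above the rest include the mitochondrial regions.

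At places found under both treatments, folds were mostly higher under E2 over fewer raw tags. The 963 DMSO and 938 E2 shared regions formed 967 overlapping pairs, and fold enrichment was higher under E2 in 857 of them (88.6%), with a median ratio of 1.63. Tags at the summit were higher under DMSO in 641 pairs (66.3%), with medians of 27 and 23. These are raw tags, not scaled to the depth estimated above. Local background was 2.12 tags under DMSO and 0.528 under E2 at the median. The higher folds under E2 thus stood beside fewer tags over a lower background, as the plot of pairs shows. Summits of a pair lay a median of 60 bp apart, and the E2 region was the wider one in 79.1% of pairs.

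E2-only regions lay at promoters, and DMSO-only regions lay within introns and between genes. A protein-coding start site was within 250 bp of 72.1% of E2-only regions (interval 71.0 to 73.3), against 10.0% of DMSO-only regions (interval 8.41 to 11.8) and 33.5% of shared E2 regions (interval 30.5 to 36.6). Introns away from start sites held 47.8% of DMSO-only, 31.4% of shared E2 and 10.1% of E2-only regions. Sequence between genes held 28.4%, 18.0% and 6.64%. Within 50 kb of a protein-coding start site lay 96.8% of E2-only summits but 74.3% of DMSO-only summits.

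Base composition parted the classes even more. Over 500 bp around the summit, CpG-rich sequence (at least 55% G + C and an observed over expected CpG ratio of at least 0.65) was found in 86.3% of E2-only regions (interval 85.4 to 87.2), 37.7% of shared E2 regions and 5.18% of DMSO-only regions (interval 4.01 to 6.56). For comparison, 45.2% of protein-coding start sites, 49.9% of H3K4me3 summits under E2 and 0.627% of H3K4me1 summits under DMSO met the same limits. E2-only regions were CpG-rich also away from promoters, in 51.2% of introns and 62.2% of intergenic places, against 1.35% and 0.855% of DMSO-only regions there. Even at protein-coding start sites, 31.5% of DMSO-only regions were CpG-rich and 95.2% of E2-only regions were. Neither a start site nor CpG-rich sequence was found at 81.5% of DMSO-only, 50.3% of shared E2 and 8.59% of E2-only regions.

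**Figure D2:**
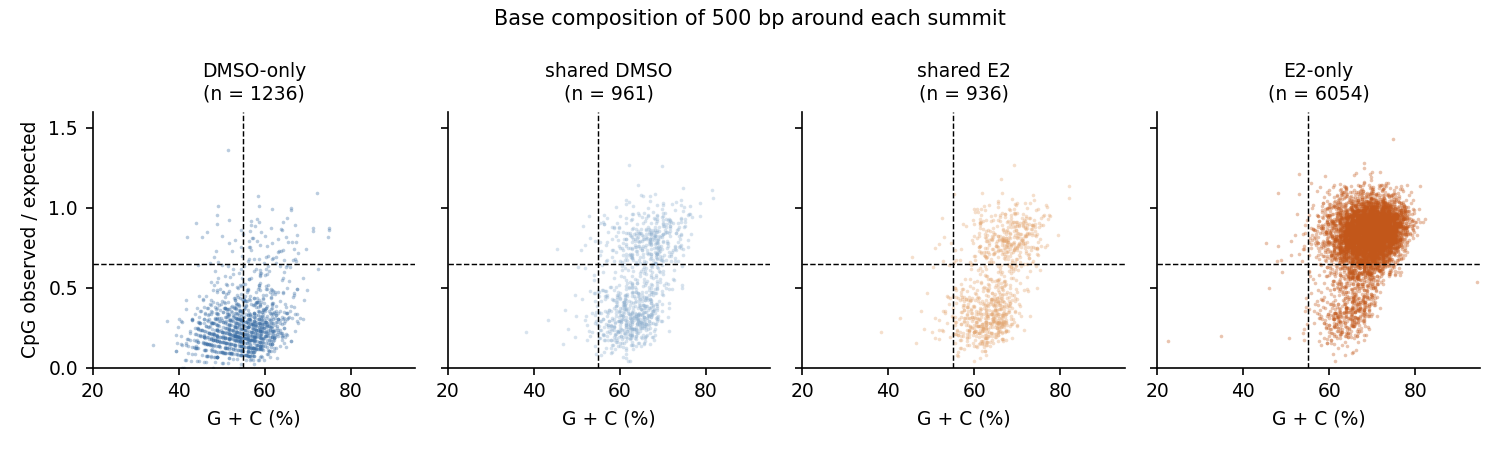
G + C content (x axis, percent) and CpG observed over expected ratio (y axis) in 500 bp around each summit, 1 point per region, in 4 panels by class. Dashed lines mark the limits of 55% and 0.65; 86.3% of E2-only and 5.18% of DMSO-only regions lie above both, and shared regions form 2 clouds.

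Most regions of either list lay at marks of active chromatin. H3K4me3 of the same treatment overlapped 97.0% of E2-only regions (interval 96.5 to 97.4), 92.2% of shared E2 regions and 73.8% of DMSO-only regions (interval 71.2 to 76.2). TAF1, a subunit of the general factor TFIID that sits at promoters, was at 88.6%, 89.6% and 76.2%. SIN3A, the scaffold of a histone deacetylase complex, was at 92.1%, 92.9% and 72.9% in stripped medium. The enhancer mark H3K4me1 ran the other way, with 7.35% of E2-only, 47.5% of shared E2 and 65.4% of DMSO-only regions. At least 1 of the 2 methylation marks lay at 97.7% of E2-only and 85.8% of DMSO-only regions. Both marks together lay at 53.4% of DMSO-only regions and 6.64% of E2-only regions. No Ishikawa list of the same treatment overlapped 24 E2-only, 21 DMSO-only and 3 shared E2 regions. The H3K36me3 list, a mark of transcribed gene bodies with 114 regions, overlapped none of the 9191.

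**Figure D3:**
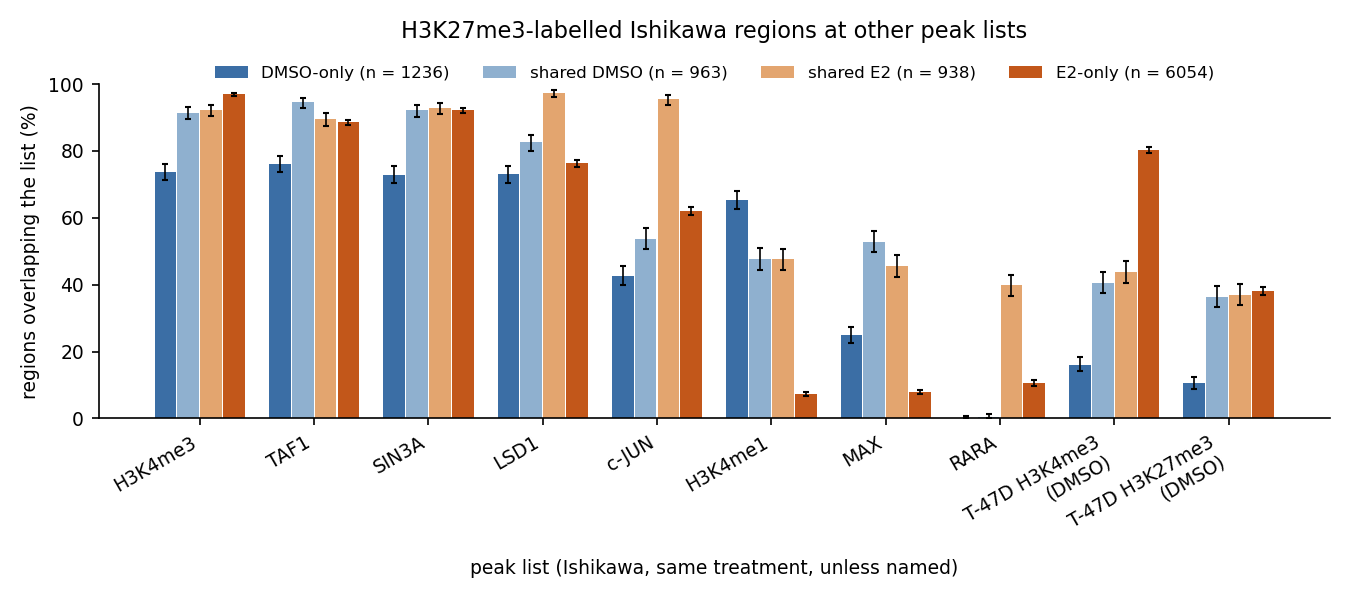
Percent of H3K27me3-labelled regions overlapping each peak list (y axis), by class (bars) and list (x axis), with exact 95% intervals. H3K4me3, TAF1 and SIN3A bars are above 72% in all classes, H3K4me1 falls from 65.4% of DMSO-only to 7.35% of E2-only regions, and T-47D H3K4me3 rises from 16.1% to 80.3%.

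Sequence-specific and cofactor lists were also found at these regions beyond the level at other H3K4me3 regions. The histone demethylase LSD1 lay at 76.3% of E2-only and 97.3% of shared E2 regions under E2, and at 33.2% of the 24243 H3K4me3 regions that held no H3K27me3-labelled region. Those H3K4me3 regions were not matched for fold enrichment or place, and weakly enriched ones are overrepresented among them. The AP-1 subunit c-JUN lay at 62.1% and 95.4%, against 26.0%, and TAF1 at 88.6% and 89.6%, against 43.0%. The retinoic acid receptor RARA lay at 10.5% and 39.8%, against 5.37%. The lists of LSD1, c-JUN and RARA were themselves longer under E2 (18384, 18311 and 2883 regions) than under DMSO (8618, 3768 and 137). DMSO-only regions overlapped the c-JUN list in 42.7% of cases under DMSO and in 88.8% under E2, where they are absent from the H3K27me3-labelled list. LSD1 showed 73.1% and 88.0% for the same regions. At H3K4me1 regions under DMSO without an H3K27me3-labelled region, LSD1 lay at 10.1% and c-JUN at 4.46%. MAX, the dimer partner of MYC at E-boxes, had 3368 regions under DMSO and 2002 under E2. Its DMSO list overlapped 24.9% of DMSO-only and 17.8% of E2-only regions, and its E2 list 26.9% and 7.86%. The c-MYC lists held 61 and 2 regions, too few for a comparison.

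Under E2, an H3K27me3-labelled region lay more often in the more enriched regions of H3K4me3, TAF1, SIN3A and H3K4me1, but not of the other proteins. When the H3K4me3 regions of E2-treated cells were split into 5 equal bins by fold enrichment, the share rose from 5.14% in the lowest to 39.8% in the highest. For TAF1 it rose from 16.5% to 60.6%, and in the SIN3A list of stripped medium, which had no E2 treatment, from 10.5% to 52.8%. Under DMSO the H3K4me3 bins ran from 4.31% to 7.37% with no steady rise, and the TAF1 share was 5.37% in the lowest bin and 11.2% in the highest. Larger rises under DMSO were seen for LSD1 (6.44% to 42.9%), c-JUN (15.7% to 44.2%) and MAX (10.5% to 44.6%). For H3K4me1 the share rose under both treatments, from 1.65% to 15.1% under DMSO and from 2.15% to 11.8% under E2. For LSD1 and c-JUN under E2 the shares formed no rise, with 35.8% and 35.7% in the lowest bins and 35.9% and 20.8% in the highest. MAX and RARA under E2 formed none either, with 54.0% and 42.5% in the lowest bins and 49.8% and 40.8% in the highest. Across genes, 36.3% of the 13337 with start-site H3K4me3 under E2 had an H3K27me3-labelled region there, and 0.25% of the 6411 without it. Under DMSO these shares were 3.29% and 0.0911%. With TAF1 in place of H3K4me3 they were 43.0% and 2.12% under E2, and 3.7% and 0.099% under DMSO.

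Summits lay closer to those of proteins than to those of histone marks. E2-only summits at protein-coding start sites lay a median of 81 bp from the start, shared E2 summits 80.5 bp and DMSO-only summits 86 bp. TAF1 summits under E2 lay 57 bp away and H3K4me3 summits 194 bp away, most of these downstream. Within overlapping regions, the median distance of an E2-only summit was 81 bp to the TAF1 summit, 76 bp to the c-JUN summit and 195 bp to the H3K4me3 summit. DMSO-only summits lay 55, 45.5 and 173.5 bp from these summits, and 258.5 bp from those of H3K4me1.

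**Figure D4:**
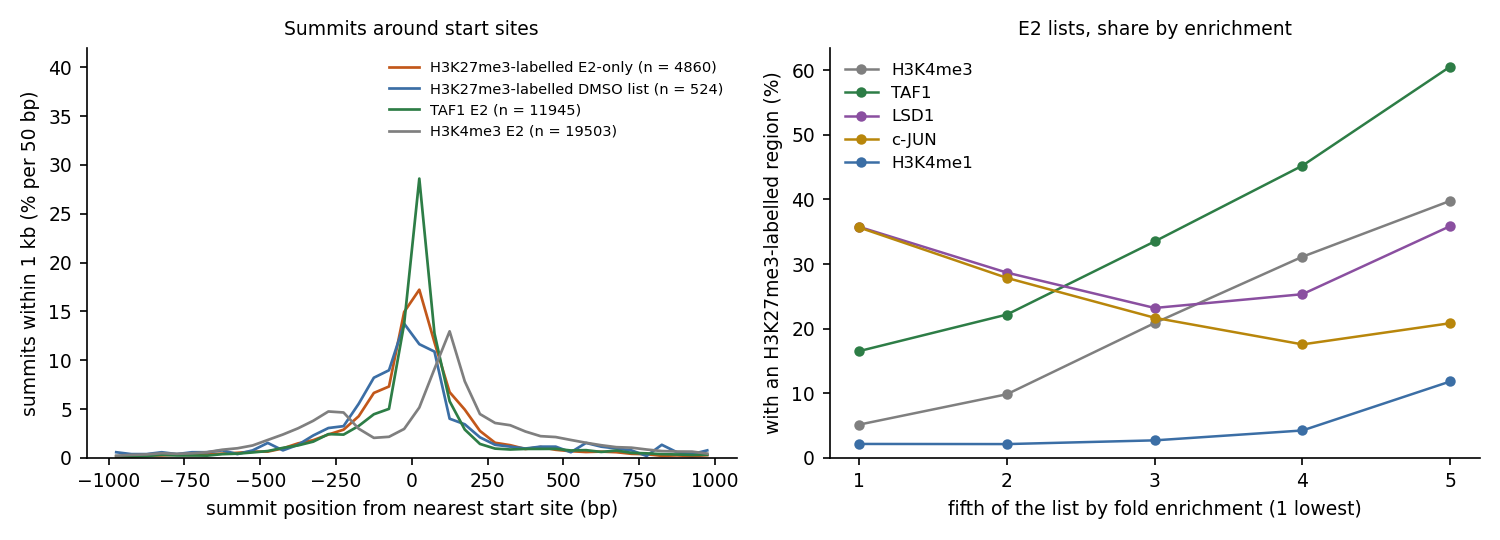
Left, percent of summits within 1 kb of a protein-coding start site per 50 bp (y axis) by position from the start (x axis). Right, percent of E2-list regions of each target that hold an H3K27me3-labelled region (y axis), in 5 bins of fold enrichment (x axis). H3K27me3-labelled and TAF1 summits peak at the start site, H3K4me3 peaks downstream of it, and TAF1 rises from 16.5% to 60.6% over the bins.

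The strongest shared regions lay outside promoters and carried many proteins. The highest was between genes on chromosome 20 from 60952568 to 60953198 in the E2 list, 9335 bp upstream of RPS21, a small ribosomal subunit gene. Its fold enrichment was 30.5 under DMSO and 46.9 under E2, over 69 and 63 tags. It overlapped 7 of the other Ishikawa lists under DMSO and 8 under E2. Next came a region past the end of TXN2, the mitochondrial thioredoxin gene, with folds of 24.4 and 29.3. Folds were nearly equal in an intron 87965 bp upstream of FAM184A (23.8 and 24.2), and in an intron of CARM1 (22.7 and 22.4), an arginine methyltransferase and nuclear receptor coactivator. They were lower under E2 near DNAJC5B on chromosome 8 (32.2 and 23.7). Introns of JAG2, a Notch ligand, held a pair of them with folds of 22.2 and 26.2, and of 21.8 and 25.6. The last of the 8 lay in an intron of ARID3A, with 22.2 and 27.8. None of these 8 places was CpG-rich, and all overlapped H3K4me3, TAF1, LSD1, c-JUN and MAX under both treatments.

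DMSO-only regions at the top of their list were distal. The strongest lay in an intron on chromosome 14 from 96132783 to 96133242, 19757 bp upstream of TCL1B, with a fold of 30.5 over 54 tags. The second, 4253 bp upstream of IZUMO2, a sperm membrane gene, had 25.1. The others had folds of at most 21.7 and lay in introns nearest to TOM1L2, SLC39A11 and, for a pair of them, TSN, and between genes nearest to CAAP1 and SLC39A8. SLC39A11 and SLC39A8 encode zinc transporters. The nearest protein-coding start was over 100 kb away for 5 of the 8. All 8 overlapped TAF1 and LSD1, and none was CpG-rich or at a start site.

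Among the 8 strongest E2-only regions, promoters and distal places were mixed. The highest lay within 250 bp of a start of NT5DC2, on chromosome 3 from 52567891 to 52568259. It had a fold of 30.7 over 48 tags and overlapped H3K4me3 and SIN3A alone. A 1197-bp region at the start of RGS10, a regulator of G protein signalling, had 26.3. A region 10721 bp upstream of SLC38A2, an amino acid transporter, covered a start site that is not protein-coding and had 25. The other 5 lay in introns of DOK7 (29.3), CASZ1 (28.2) and CBFA2T3 (25) or between genes nearest to ODF1 (25.7) and CIBAR2 (24.7). All 8 overlapped H3K4me3 under E2. E2-only regions with no mark or protein were weaker below the first. That first one lay on chromosome 8 from 43092718 to 43093148 with a fold of 23.7 and a G + C content of 22.6%, followed by an exon near PTK7 (14.6) and a place upstream of ITM2C (13.9).

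Regions stood alone for the most part. Joining regions within 5 kb of one another left 1874 groups under DMSO and 6060 under E2, of which 87.7% and 88.0% held 1 region, and no group held more than 9. LAMA5, the laminin alpha 5 chain of basement membranes, held 9 regions over 12.1 kb under DMSO and 9 over 12.3 kb under E2. Under DMSO the next groups lay nearest to RPL3 (7 regions), ANKRD30BL (6), TUBGCP2 (5) and RAPGEF3 (5). Under E2 a group at MTA1 and CRIP2 held 9, and groups of 7 lay at AGPAT2, at HOOK2 and JUNB, and at CFD and MED16. JUNB is itself an AP-1 gene, and MTA1 a subunit of a deacetylase complex.

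Under E2, housekeeping genes lay above the background of all genes and Polycomb targets below it. Under DMSO the Polycomb interval held the background, and with folds of at least 10 no housekeeping gene (0 of 50) and no Polycomb target had a region, against 0.299% of all genes. ACTB, the cytoskeletal actin, had a start-site region with a fold of 15.5 under E2 and none under DMSO. GAPDH, a glycolytic enzyme, had 4.53 and 13.3, and TUBA1B, a tubulin, 5.47 and 14.9. COX4I1, a subunit of the respiratory chain, had 16.0 under E2 alone, the highest of the list. All 50 housekeeping genes had start-site H3K4me3 under both treatments, the 28 with a region under E2 included. TPI1 was the one housekeeping gene with a region under DMSO alone (6.98).

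Of the 23 Polycomb target genes covered under E2, 20 had start-site H3K4me3, a lower share than the 99.7% of all 4860 covered genes. Genome-wide 16 covered genes lacked it, and 3 of these were on this list. Of the whole list of 155, H3K4me3 lay at 91 genes under DMSO and 93 (60%) under E2, against 66.6% and 67.5% of all protein-coding genes. PITX3 (8.65 under DMSO and 16.2 under E2) and OLIG1 (7.39 and 12.3), factors of neuronal and glial lineages, were those present under both treatments. HOXD8 (16.2), HOXD9 (13.9), HOXC9 (13.0) and HOXA4 (12.7) led the homeotic genes under E2. BARHL1 (18.5), SIX2 (12.6) and GSX1 (9.80) were the 3 without H3K4me3 at the start site in either list.

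**Figure D5:**
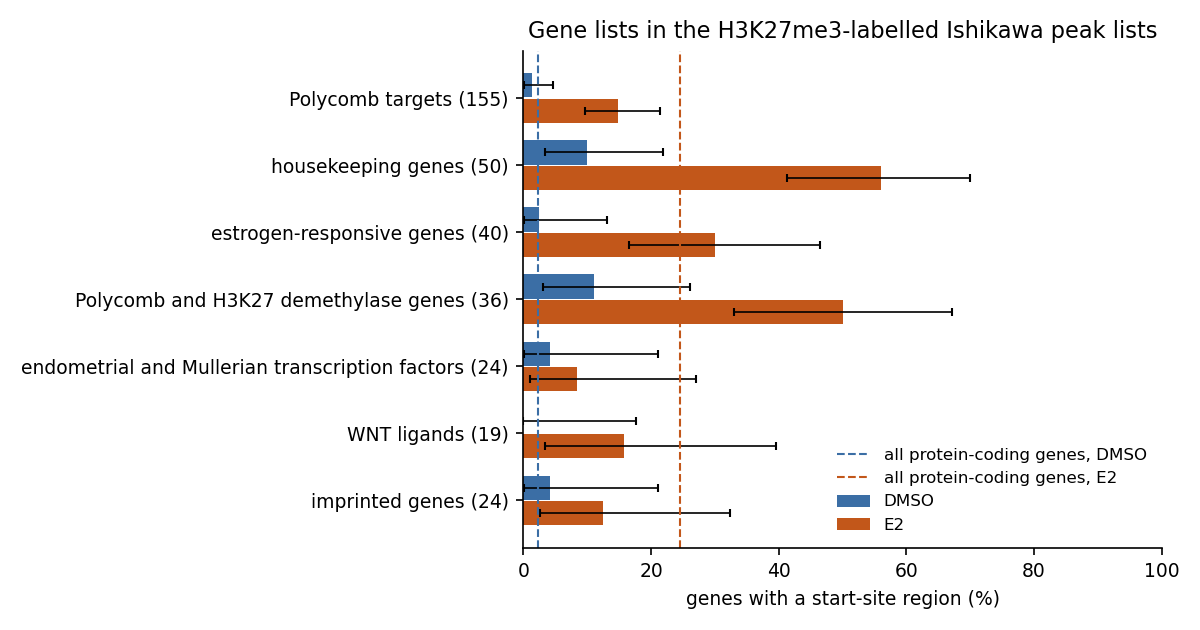
Percent of genes in each list with an H3K27me3-labelled region within 250 bp of a start site (x axis), under DMSO and E2, with exact 95% intervals; the number of genes is in parentheses. Dashed lines mark all protein-coding genes (2.22% and 24.6%); Polycomb targets stand at 1.29% and 14.8%, with the DMSO line inside their interval, and housekeeping genes at 10.0% and 56%.

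Genes of the Polycomb machinery and of H3K27 demethylation had regions at their own start sites in 4 of 36 cases under DMSO (11.1%) and 18 of 36 under E2 (50%, interval 32.9 to 67.1). The background was 2.22% and 24.6% of all protein-coding genes. Among genes with start-site H3K4me3 it was 3.29% and 36.3%, and the E2 interval holds the latter. PHF1 (8.38 and 23.1) and AEBP2 (22.3 under E2), accessory subunits of Polycomb repressive complex 2, had the highest folds. RING1, the ubiquitin ligase of complex 1, had 14.2, the adaptor YAF2 had 8.63 and 13.8, and PHC3 had 8.97 and 13.5. KDM2B, which brings complex 1 to CpG islands, had 15.3, and the demethylase KDM6B 12.8. All 36 genes carried H3K4me3 under both treatments.

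Estrogen-responsive genes were near the background, with 1 of 40 under DMSO (2.50%) and 12 of 40 under E2 (30%, interval 16.6 to 46.5). NHERF1, a membrane scaffold, was present in both lists with 8.01 and 22.7. CISH (15.1), KCNK5 (13.0), FKBP4 (11.4) and STC2 (11.4) were present under E2 alone. Of 24 endometrial and Mullerian transcription factor genes, 1 had a region under DMSO, PAX8 (5.67), and 2 had one under E2, ARID1A (19.2), a chromatin remodelling subunit, and EMX2 (9.80). Of 19 WNT ligand genes, 0 and 3 did, with WNT10A at 9.75, WNT2B at 9.68 and WNT9A at 9.40. Among 24 imprinted genes, MKRN3 had 14.4 under DMSO alone, and KCNQ1 (13.1), PLAGL1 (9.31) and SLC22A18 (7.93) had regions under E2 alone. The intervals of all these lists hold the share of all protein-coding genes, 2.22% under DMSO and 24.6% under E2.

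Gene families with roles in every cell had shares of 35.9% to 43.2% under E2, near the 36.3% of all genes with start-site H3K4me3, a mark that 92.3% or more of each family carried. Olfactory receptor and clustered protocadherin genes were not covered. Cytosolic ribosomal protein genes had a region in 3 of 84 cases under DMSO and 31 of 84 under E2 (36.9%, interval 26.6 to 48.1), among them RPS15 (14.3) and RPL36 (14.0). Mitochondrial ribosomal protein genes had 3 and 32 of 78, with MRPS7 at 19, and subunits of NADH dehydrogenase 2 and 16 of 37, with NDUFS7 at 7.32 and 17.5. Proteasome subunits had 2 and 14 of 39 (interval 21.2 to 52.8 under E2), and SRSF and SF3 splicing factors 0 and 9 of 21 (interval 21.8 to 66.0), and both intervals hold the 24.6% of all genes. Olfactory receptor genes had 0 of 391 and clustered protocadherin genes 0 of 51 in both lists, and H3K4me3 under E2 lay at 1 and 9 of these. Families of ZNF zinc finger genes (5 and 119 of 512) and solute carriers (10 and 96 of 371) were near the background. Replication-dependent histone genes had 1 and 3 of 64 (4.69% under E2, interval 0.977 to 13.1), and keratins 2 and 4 of 55 (7.27%, interval 2.02 to 17.6). Both lay below the 24.6% of all genes under E2, where H3K4me3 lay at 29.7% and 10.9% of them. The keratins were KRT80 (14.0 and 23.5), KRT8 (10.4 and 12.6), KRT18 (9.59 under E2) and KRT19 (9.31 under E2). Claudins, the proteins of tight junctions, had 1 and 3 of 24, with CLDN1 at 15.7 and CLDN7 at 15.1 under E2. Their E2 interval, 2.66 to 32.4, holds the share of all genes. A region between neighbouring start sites counted for both genes.

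Of 3 loci followed by the study, TGFA and GREB1 held regions, and there those under DMSO and E2 never overlapped. TGFA, a ligand of the EGF receptor, had 3 DMSO-only regions within 100 kb, 28874 bp downstream of its start (fold 9.32) and 43010 and 62490 bp upstream (15.9 and 9.72). Under E2 it had 2 E2-only regions, at the start site itself, with folds of 12.2 and 12.8. GREB1, a classical estrogen target, had an intronic DMSO-only region 939 bp past its start (7.62). Its E2-only regions lay in an intron 16375 bp past the start (14.5) and at the start of NTSR2 (10.6). PEG10, an imprinted gene, had 0 regions within 100 kb in either list. TGFA was thus distal under DMSO and at the start site under E2, as most regions of these classes were. GREB1 was not, since its DMSO-only region lay nearer its start than its intronic E2-only region.

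Short motifs in the 150 bp on the summit differed by class. They were searched on both strands, and none of them contains another. The AP-1 site TGANTCA was in 10.8% of DMSO-only regions, 7.16% of shared E2 regions and 1.88% of E2-only regions, against 2.96% of protein-coding start sites and 5.52% of H3K4me1 summits under DMSO. The GC box GGGCGG was in 54.1% of E2-only and 14.5% of DMSO-only regions, against 34.1% of start sites. The ETS site CCGGAAG was in 8.23% and 2.18%, against 7.18%, the E-box CACGTG in 5.35% and 2.83%, against 3.89%, and the CCAAT box in 10.6% and 12.9%, against 18.1%. The cyclic AMP element TGACGTCA was in 1.09% and 0.0809%, against 1.2%, and the NRF1 site, GCGCA joined to TGCGC, in 0.545% and 0.0809%, against 0.760%. The palindromic estrogen response element, GGTCA and TGACC with any 3 bases between, was in 4 of 6054 E2-only, 1 of 1236 DMSO-only and 0 of 936 shared E2 windows, and in 6 of 19748 start-site windows. One of the 4 is the DOK7 intron printed above.

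Some chromosomes held more or fewer regions than H3K4me3 would give. Chromosome 12 held 257 of the DMSO regions (11.7%) and chromosome 10 held 213 (9.69%), where H3K4me3 under DMSO had 5.25% and 4.57% of its regions. Under E2 their shares were 7.14% and 6.14%. On chromosome 12 other Ishikawa lists under DMSO stood at 12.7% for MAX, 10.2% for RARA, 9.02% for c-JUN, 8.04% for LSD1 and 7.67% for H3K4me1. TAF1 stood at 5.35%, near the share of H3K4me3. Chromosome X held 6 DMSO and 27 E2 regions (0.273% and 0.386%), where H3K4me3 had 2.71% and 2.70%. The X share of H3K4me1 was low too, at 0.172% and 0.0754%, and that of TAF1 was 2.41% and 2.33%.

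The H3K27me3-labelled list of DMSO-treated T-47D breast carcinoma cells lay at promoters about as often as the Ishikawa E2 list did. Of its 6305 regions, 64.9% lay at protein-coding start sites, against 66.9% of the Ishikawa E2 list and 19.1% of the Ishikawa DMSO list. At H3K4me3 of the same line and treatment its share, 85.7%, was nearer to the Ishikawa DMSO list (81.5%) than to the E2 list (96.3%). It overlapped 38.0% of E2-only, 37% of shared E2 and 10.5% of DMSO-only regions. T-47D H3K4me3 under DMSO lay at 80.3%, 43.7% and 16.1% of them, and at 54.9% of Ishikawa H3K4me3 regions without an H3K27me3-labelled region. Polycomb targets were below the background there, with 9 of 155 genes (5.81%) against 21.9% of all protein-coding genes, and 36 of the 50 housekeeping genes had a region. Under E2 the T-47D list held 107 regions, 0 of them at a protein-coding start site.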

How the data were processed

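Per the labels and the study's methods, reads were aligned to hg19 (GRCh37) with Bowtie 1.1.2 and peaks were called per library with MACS2 2.1.0.20140616, with no pooling. For each peak the authors deposited a fold enrichment (a linear ratio), a −log10 p-value and a −log10 q-value. The smallest −log10 p-value was 10.0 under DMSO and 10.3 under E2. The deposited lists state no depth.

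An overlap of 1 bp made regions shared. Tags and local background per summit were solved from fold and p-value, within 0.001 of the p-value for all regions. Start sites came from GENCODE 44 on GRCh37 (78530 start sites of 19748 protein-coding genes). The mitochondrial sequence differs between hg19 and GRCh37, so mitochondrial regions (2 per list) got no sequence annotation. Scripts used Python 3.11.15, pandas 2.3.3 and SciPy 1.17.1, and were checked on simulated lists.

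The members, the gene lists and the families were chosen with earlier results of these data known, and families and motifs also after the lists had been seen. All 348 listed genes were matched. Named were the 8 regions per class with the highest fold enrichment on chromosomes 1 to 22 and X (the lower value for shared regions), 3 E2-only regions without any mark, the 5 fullest groups per treatment, up to 8 genes per list with the highest folds, and the loci of TGFA, PEG10 and GREB1. A further locus that this rule names is not reported here. OLIG1, GSX1, TPI1, JUNB, PTPRC and other single genes outside that rule were chosen after their values were seen. Alternatives changed the overlap, the thresholds, the start-site window, the CpG limits and the H3K4me3 list.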

Additional observations from a re-analysis of the deposited data

Results flagged for a closer look

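Region numbers moved in opposite directions in the 2 lines. In Ishikawa the log2 ratio of E2 over DMSO regions was 1.67, and in T-47D it was −5.88, a difference of 7.55. Each rests on 1 library per treatment, and the difference was not tested. The T-47D E2 list held 107 regions, of which 5.61% lay at H3K4me3, against 85.7% of the T-47D DMSO list.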

How the results depend on the processing

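Of 65 values under alternatives, 28 kept within 1.5 times the reported count or within the interval of the reported share, and 37 moved. The order of the 3 classes held in all 11 comparisons of their shares, with E2-only highest and DMSO-only lowest at start sites, in CpG-rich sequence and at H3K4me3. No paired analysis was possible because each treatment had 1 library. Leaving out a replicate was not possible for the same reason.

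With a reciprocal overlap of 50%, 612 regions of each list were shared. With folds of at least 10 in both lists, 449 regions were DMSO-only, 353 DMSO and 350 E2 regions were shared, and 0 Polycomb targets, 0 of 50 housekeeping genes and 0.299% of all genes had a region under DMSO. In the same order of E2-only, shared and DMSO-only, start-site shares were then 68.1%, 10.0% and 5.12%, CpG-rich shares 81.1%, 11.1% and 1.56%, and H3K4me3 shares 96.5% for E2-only and 70.4% for DMSO-only. With the E2 list shortened to the length of the DMSO list, 1587 regions were E2-only, 1564 DMSO-only, 635 DMSO and 612 E2 regions were shared, start-site shares were 74.3% for E2-only and 14.1% for DMSO-only, the DMSO-only share at H3K4me3 was 77.2%, and 5 Polycomb targets (3.23%, against 7.65% of all genes) had a region under E2. Within 1 kb of a start site lay 81.2%, 37.1% and 14.5%, and within 250 bp of a start of any transcript 79.9%, 43.4% and 17.2%. Limits of 50% G + C and 0.6 gave 89.2%, 41.9% and 7.20%. The H3K4me3 list of the other treatment overlapped 95.8% of E2-only and 70.6% of DMSO-only regions, and a cover of 50% left 92.4%, 83.2% and 67.6%. Gene bodies with 5 kb before them gave 4 Polycomb targets under DMSO and 42 under E2. The share of all protein-coding genes was not computed for that window, so these counts cannot be set against a background. Apart from the settings that keep fewer regions, the causes were not tested.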
